A study of Mus musculus with 16 samples.

Results

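Single-strand break peaks of mouse embryonic stem cells lacking TDG were compared between talazoparib and DMSO. The members were all peaks on chromosomes 1 to 19 in the lists deposited for these conditions: 35020 peaks with DMSO and 23559 with talazoparib, together 58579 of the 103545 peaks that the 4 lists of the series hold on all chromosomes. A DMSO peak that shared at least 1 bp with a talazoparib peak is called kept and one that shared none is called lost. A talazoparib peak that shared none with the DMSO list is called gained. These words describe membership of a list: a peak missing from a list did not pass the peak caller's limits there, which does not show that breaks were absent.

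The cells were of strain C57BL/6JRj and were grown without serum in 2i medium with LIF at 1000 U/ml, which keeps embryonic stem cells in a naive state. Their genotype label is KO; Tdg-depleted, and the loss came from excision of a Tdg minigene by 4-OHT, given at 5 µM for 2 h according to a protocol text that all samples of the series share, the wild-type ones included. The cells labelled KO received either DMSO, for a time not given in the sources used here, or 5 nM talazoparib for 24 h. Each condition had 3 immunoprecipitated (IP) libraries and 1 input library, 8 of the 16 libraries of the series. The labels do not say that the 3 libraries came from separate cultures, nor whether the cells were 1 clone, and the deposited list of each condition pools its 3 IP libraries. Differences between conditions therefore have no replicate spread and no test, and all intervals below cover counting error only. Peak lists hold break signal and not expression, so the labelled cell type could not be checked against its markers.

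Single-strand breaks arise as intermediates of base excision repair, in which a glycosylase such as TDG removes a base, an endonuclease cuts the backbone and a polymerase and ligase close the gap. TDG excises thymine and oxidised forms of 5-methylcytosine and so links this pathway to DNA demethylation, which acts at CpG dinucleotides. PARP1 and PARP2 bind such breaks and attach chains of ADP-ribose that recruit repair proteins. Talazoparib blocks their catalytic site and holds them on DNA. In SSB-seq, E. coli DNA polymerase I starts at nicks and inserts digoxigenin-labelled nucleotides, and the labelled fragments are pulled down and sequenced, so a peak is a region where labelled DNA was enriched over input.

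Kept DMSO peaks lay at promoters more often (48.6%) than lost (17.6%) and gained peaks (14.6%), and were richer in CpG at the median. The sequences below, 200 bp at the centre of 6 peaks, give examples of strong peaks of each class; they were read from GRCm38.p6, the assembly behind mm10, in the direction of the gene, with each CpG in capitals. They are among the strongest peaks per kb of each class in the promoter or body of a protein-coding gene whose input density was at most the genome mean and whose window touched no exon. The kept examples were taken from promoters only, and the gained examples from peaks without a run of at least 10 CA units. The lost examples had neither limit, so the examples of the 3 classes were not chosen alike. Sp4 (chr12:118301695-118301894, promoter), which encodes a transcription factor of the GC-box binding family, and Ssc4d (chr5:135962648-135962847, promoter) were kept. Ubp1 (chr9:113930609-113930808, promoter), a transcription factor gene, and Psma3 (chr12:70974813-70975012, intron), a proteasome subunit gene, were lost. Grb10 (chr11:12025608-12025807, intron), an imprinted adaptor gene, and Wnt6 (chr1:74773096-74773295, intron), a Wnt ligand gene, were gained. Kept, lost and gained refer here to the peak and not to the gene: Grb10 also had a promoter peak seen with DMSO only.
Sp4: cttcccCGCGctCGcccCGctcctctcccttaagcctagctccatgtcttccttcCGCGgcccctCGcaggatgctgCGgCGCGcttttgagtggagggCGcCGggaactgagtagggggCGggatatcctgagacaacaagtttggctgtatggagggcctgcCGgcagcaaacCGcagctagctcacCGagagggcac
Ssc4d: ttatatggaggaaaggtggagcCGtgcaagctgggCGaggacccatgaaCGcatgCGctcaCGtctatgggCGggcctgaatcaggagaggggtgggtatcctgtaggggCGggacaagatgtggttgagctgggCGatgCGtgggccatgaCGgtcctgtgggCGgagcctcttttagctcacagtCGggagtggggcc
Ubp1: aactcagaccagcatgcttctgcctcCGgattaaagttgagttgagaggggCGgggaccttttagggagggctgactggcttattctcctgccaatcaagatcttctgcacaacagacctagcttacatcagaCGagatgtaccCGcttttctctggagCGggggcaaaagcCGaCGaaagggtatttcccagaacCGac
Psma3: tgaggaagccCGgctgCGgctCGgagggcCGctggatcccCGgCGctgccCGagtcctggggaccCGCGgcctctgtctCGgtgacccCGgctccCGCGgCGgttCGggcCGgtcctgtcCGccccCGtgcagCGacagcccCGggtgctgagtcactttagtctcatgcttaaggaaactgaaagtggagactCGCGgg
Grb10: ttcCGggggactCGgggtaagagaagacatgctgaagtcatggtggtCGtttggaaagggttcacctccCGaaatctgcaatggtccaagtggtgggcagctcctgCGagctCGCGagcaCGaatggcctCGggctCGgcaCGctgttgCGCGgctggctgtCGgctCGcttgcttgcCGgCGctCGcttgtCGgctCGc
Wnt6: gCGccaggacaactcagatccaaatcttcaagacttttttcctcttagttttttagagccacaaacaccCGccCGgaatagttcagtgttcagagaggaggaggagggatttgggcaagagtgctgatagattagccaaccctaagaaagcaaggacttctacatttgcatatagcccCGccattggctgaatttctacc

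The kept windows held 16 CpGs at Sp4 and 12 at Ssc4d, and the lost windows 8 at Ubp1 and 22 at Psma3. The gained windows held 20 at Grb10 and 4 at Wnt6. The CpG counts of these examples did not follow the difference between the classes as a whole.

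The IP libraries of both lists were of similar size, 69.2 M tags with DMSO and 66.4 M with talazoparib, against 24.8 and 28.3 M input tags. DMSO peaks covered 31.5 Mb with a median length of 718 bp, and talazoparib peaks 19.1 Mb with 644 bp. In both lists the lowest enrichment over input was 4.00-fold. The median enrichment was 6.32-fold with DMSO and 5.20-fold with talazoparib, while the median tag density, in tags per bp relative to the genome mean of the same library, was 2.53 with DMSO and 2.91 with talazoparib. Input density at peaks was also higher in the talazoparib list, 0.561 against 0.426 times the genome mean. The talazoparib list was therefore shorter and made of denser peaks that stood over a higher input; the part of the input libraries in the difference between the lists was not tested.

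Of the DMSO peaks, 13689 (39.1%, Wilson 95% interval 38.6 to 39.6%) were kept with talazoparib and 21331 (60.9%) were lost. Of the talazoparib peaks, 13842 (58.8%) were kept and 9717 (41.2%, 40.6 to 41.9%) were gained. A limit of at least 6-fold enrichment in both lists left 19901 DMSO and 7204 talazoparib peaks. Of these, 12.5% of DMSO peaks were kept and 65.5% of talazoparib peaks were gained. Lost peaks made up 48.0% of the bases under DMSO peaks, and gained peaks 30.9% of the bases under talazoparib peaks, since unmatched peaks were the shorter ones. Few peaks lay at the edge of the rule: 124 of 13914 matched pairs shared only 1 to 50 bp, and 90 lost peaks lay within 50 bp of a talazoparib peak. Within 500 bp of the other list lay 4.02% of lost and 7.98% of gained peaks. The division did depend on the overlap asked for. Where a match had to cover 50% of both peaks, 28.7% of DMSO peaks were kept and 57.3% of talazoparib peaks were gained. A peak of the other list lay within 10 kb of 49.1% of lost and 60.3% of gained peaks. These shares have no background here, since none was computed for genome points, and the other list was longer for gained peaks (35020 peaks) than for lost ones (23559). Every autosome showed the same balance, with losses from 57.4% on chromosome 14 to 66.2% on chromosome 16 and gains from 37.4% on chromosome 19 to 43.8% on chromosome 16. Chromosome 11 had the next highest loss at 65.5%.

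Whether a peak was matched varied with its strength. The list was divided by IP tags into 10 groups of equal size. In the group with the fewest, 19.5 to 25.5 tags, 6.31% were kept. Between 39.0 and 47.5 tags the share was 26.3%, and in the top group, from 174 tags, it was 91.5%. Talazoparib peaks showed the same gradient, from 16.2% matched in the lowest group to 98.0% in the top group. Most of the strongest break peaks were thus present in both lists, and the weak ones were mostly seen in 1 list. Lost peaks had a median of 35.5 IP tags over 2.0 input tags, gained peaks 31.5 over 2.5, and kept peaks 99.6 over 6.0 with DMSO and 83.7 over 7.0 with talazoparib. A lost or a gained peak therefore rested on few input tags, with 64.1% of lost and 53.6% of gained peaks having under 3.

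**Figure D1:**
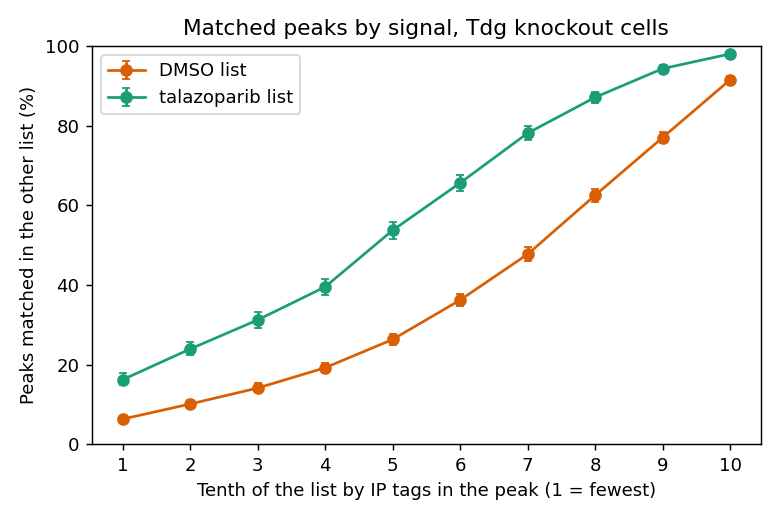
Share of peaks matched in the other list (%), for 10 groups of equal size of the DMSO and talazoparib lists ordered by IP tags in the peak; bars are Wilson 95% intervals. The share runs from 6.31% to 91.5% in the DMSO list and from 16.2% to 98.0% in the talazoparib list.

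The classes differed in where they lay. A promoter, taken as 1000 bp upstream to 100 bp downstream of an annotated transcript start, held the centre of 48.6% (47.8 to 49.4%) of kept DMSO peaks and 50.1% of kept talazoparib peaks. The share was 17.6% (17.1 to 18.1%) for lost and 14.6% (13.9 to 15.3%) for gained peaks, against 3.96% of points spaced 50 kb apart along the genome. Introns held 38.5% of lost and 40.2% of gained peaks but 22.6% of kept DMSO peaks, with 40.1% of the genome points. Intergenic sequence held 28.7% of lost, 31.0% of gained and 17.2% of kept DMSO peaks, against 49.0% of genome points. Lost and gained peaks thus resembled each other in position and both held more promoters than the genome points.

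**Figure D2:**
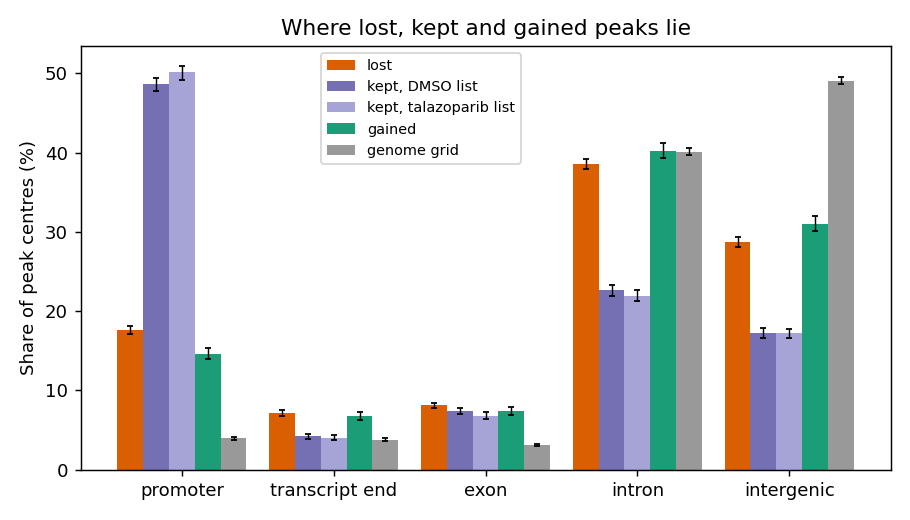
Share of peak centres (%) in 5 kinds of position for lost, kept (as listed with DMSO and with talazoparib) and gained peaks and for genome points every 50 kb; bars are Wilson 95% intervals. Promoters hold 48.6% of kept DMSO peaks, 17.6% of lost and 14.6% of gained peaks.

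Kept peaks gathered tightly around gene starts. The 250 bp before a protein-coding start held 21.5% of kept DMSO peaks and the 250 bp after it 21.7%. The same bins held 5.93% and 7.22% of lost peaks, and 4.95% and 5.14% of gained peaks. At the other end, 12.6% of lost and 14.8% of gained peaks lay over 50 kb from any protein-coding start, against 7.0% of kept DMSO peaks.

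**Figure D3:**
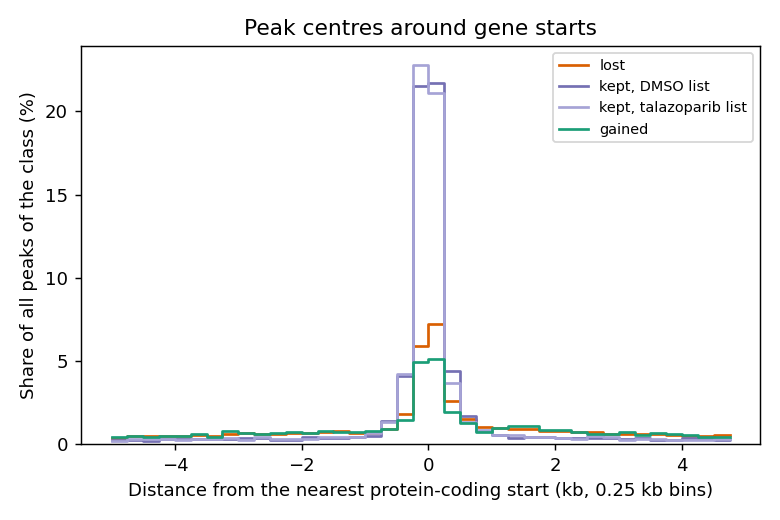
Share of all peaks of a class (%) by distance of the centre from the nearest protein-coding start, in bins of 0.25 kb (250 bp), negative values upstream. Kept peaks reach 21.5% and 21.7% in the bins beside the start, lost peaks 5.93% and 7.22% and gained peaks 4.95% and 5.14%.

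Base composition followed position. Median CpG density was 4.04 per 100 bp in kept DMSO peaks, 1.66 in lost and 1.60 in gained peaks, and 0.600 at the genome points. GC content was 55.1%, 50.9%, 50.7% and 41.8% in the same order. The GC box GGGCGG, the site of SP and KLF factors, occurred on either strand within 500 bp at the centre of 55.8% of kept DMSO peaks, 26.5% of lost, 24.8% of gained and 4.83% of genome windows. The ETS-type motif CCGGAAG occurred in 14.7%, 6.32%, 5.66% and 1.45%. The motif GCATGCGC, part of the NRF1 site, occurred in 4.77%, 2.19%, 2.32% and 0.622%. The E-box CACGTG differed less between classes, at 12.6%, 10.7%, 9.70% and 4.87%, and the CCAAT box was less frequent in every class than at the genome points, at 46.4%, 45.0%, 43.9% and 56.4%. Of motifs read by pluripotency factors, the octamer ATGCAAAT differed little between the classes. It occurred in 2.81% of kept DMSO, 3.03% of lost and 2.96% of gained peaks, below the 4.38% of genome windows. The ESRRB-type motif TCAAGGTCA occurred in 1.61% (1.42 to 1.84%), 2.18% (1.99 to 2.38%) and 1.80% (1.55 to 2.09%), above the 1.10% of genome windows. G-quadruplex motifs, runs of G that can fold into a 4-stranded form, occurred in 31.7%, 18.2%, 19.6% and 8.34%. The GC box can overlap a G-quadruplex motif, and a motif match describes the letters only.

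Since promoters carried stronger peaks, the classes were also set side by side at equal tag numbers. Between 20 and 30 tags the promoter share was 13.1% (10.8 to 15.9%) for kept DMSO, 8.61% (7.98 to 9.28%) for lost and 7.41% (6.66 to 8.25%) for gained peaks. Between 60 and 100 tags it was 40.6%, 30.1% and 35.4%, and from 100 tags 68.0%, 51.5% and 53.3%. Within each tag range the kept DMSO peaks had the highest share of these 3 classes, but the distance to the others was smaller than over all peaks, where it was 48.6% against 17.6% and 14.6%. The median CpG density was 5.61, 4.94 and 4.88 per 100 bp from 100 tags and 1.60, 1.40 and 1.40 between 20 and 30 tags, but 2.81, 2.32 and 3.03 between 60 and 100 tags, where gained peaks were above kept ones.

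CA repeats were more frequent in gained than in lost peaks. An uninterrupted run of at least 10 CA units on either strand lay within 500 bp at the centre of 6.12% (5.66 to 6.62%) of gained peaks, 2.40% (2.21 to 2.62%) of lost peaks and 1.78% (1.57 to 2.01%) of kept DMSO peaks, with 4.95% at the genome points. The difference was present among weak peaks, with 7.41% of gained, 2.83% (2.47 to 3.24%) of lost and 4.73% (3.35 to 6.64%) of kept DMSO peaks between 20 and 30 tags. Between 60 and 100 tags it was 2.81% (1.88 to 4.18%) of gained against 2.11% (1.64 to 2.72%) of lost peaks, and from 100 tags it was 1.92% (0.935 to 3.92%) against 1.42% (0.937 to 2.14%), intervals that overlap in both ranges. Repeat-masked sequence showed the same direction, since 17.6% of gained, 9.05% of lost and 3.62% of kept DMSO peaks were masked over more than 50% of their length. The wild-type lists differed in the same way, with CA repeats in 13.9% of gained, 4.41% of lost and 3.70% of kept DMSO peaks. How repeats aligned in each library was not tested.

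Among named genes, the strongest lost and gained peaks per kb were sites with high input. The strongest lost peak lay in an intron of Jarid2, a subunit of polycomb repressive complex 2 (chr13:44869518-44870274): 105 times the mean tag density (Poisson 95% interval 101 to 110) over an input density of 23.1, an enrichment of 4.55-fold. It was followed by Fgfr2, a fibroblast growth factor receptor gene, at 35.4 times the mean and an input of 5.06, Zc3h7a at 34.8 and 3.61, and Camk1d, a calcium-dependent kinase gene, at 34.2 and 7.25. Il31ra (13.7), the mitochondrial ribosome gene Mrpl45 (13.2), the kinase gene Peak1 (10.6) and the phosphodiesterase gene Pde7b (10.0) completed the 8. The strongest gained peak lay in an intron of Flt1, a VEGF receptor gene (chr5:147611263-147611888), at 187 times the mean (181 to 194) over an input of 34.2. Mdga2 followed at 90.5 over 22.2, the imprinted gene Ppp1r9a at 38.8 over 9.56, Ank1, which encodes erythrocyte ankyrin, at 28.7 over 5.47, and Efna5, an ephrin gene, at 28.7 over 7.10. Col23a1 (13.2), the lysine methyltransferase gene Setd7 (13) and Nol4l (10.2) completed this set. In each set of 8, 2 peaks were repeat-masked over more than 50% of their length. These were Il31ra (64.3%) and Pde7b (55.4%) among the lost, and Mdga2 (83.6%) and Ppp1r9a (56.6%) among the gained. Input density ran from 1.15 to 23.1 in these lost peaks and from 1.96 to 34.2 in these gained peaks, so such high densities of IP tags stood on regions that were also dense in the input; only 1.11% of all lost and 4.00% of all gained peaks had an input density over the genome mean.

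With input density held at or below the genome mean, a choice made after seeing these values, the leading lost peaks were weaker, and 4 of the 8 lay in promoters. They were Mrps28 (8.61 times the mean tag density, 7.47 to 9.86), a mitochondrial ribosome gene, and Ubp1 (7.36 times). Next came Ppp1r12b (7.31), a myosin phosphatase subunit gene, Zfr2 (7.26) and Atp6v0b (7.11), a subunit gene of the vacuolar proton pump. Psma3 (7.08), the signalling adaptor gene Gab1 (6.96) and Gfod2 (6.80) followed. Their enrichments over input ran from 7.1-fold at Gfod2 to 10.98-fold at Gab1. The leading gained peaks lay at Cenpc1 (6.02 times, 5.16 to 6.99), which encodes a centromere protein, Top3b (5.99), a topoisomerase gene, and Scg3 (5.92), a secretogranin gene. Rnf122 (5.73), Dock6 (5.63), Gm10801 (5.56, with 62.5% of the peak repeat-masked), Grb10 (5.45) and 1110008P14Rik (5.45) followed. Of these 8 gained peaks 6 lay in promoters. In the lost set, the centres at Mrps28, Psma3, Gab1 and Gfod2 lay 122 to 343 bp downstream of a protein-coding start, just beyond the promoter window. Both sets were picked among strong peaks in promoters or bodies of protein-coding genes. The promoter shares over all peaks are therefore no background for these counts. The highest density in this lost set, 8.61, was above the highest in the gained set, 6.02.

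Some genes lost or gained several peaks at a time. Tnk2, a non-receptor tyrosine kinase gene, had 7 DMSO peaks in its promoter or body and no talazoparib peak. Ttn, which encodes the sarcomere protein titin, Cachd1, Tmem40, Rnf123 and Sbno2 had 6 each. In all, 2862 of the 20807 protein-coding genes had only lost peaks by this count, 192 of them at least 3. Among gains, Rpgrip1, a gene of the photoreceptor cilium, had 4 talazoparib peaks and no DMSO peak. Lct, the lactase gene, Cacna1b, a calcium channel gene, Frrs1, Chd7, a chromatin remodeller gene, and Rpn1 had 3 each. Of 911 genes with only gained peaks, 13 had at least 3. There were 21331 lost and 9717 gained peaks to place, so these gene counts have unlike backgrounds. The genes named here ran from 20.8 kb (Rpn1) to 279 kb (Ttn), and the part of gene length was not tested.

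At shared sites the order of strength was largely the same in both conditions. Among the 13339 pairs in which a DMSO and a talazoparib peak matched only each other, normalized tag counts per kb had a Spearman correlation of 0.830 across peaks. The points share their sequence, mappability and pooled libraries, so this is a description. The median pair moved by 10.0 percentile points, 49.9% moved by at most 10, and 911 (6.83%) moved up and 922 (6.91%) down by 25 or more. Of the 1334 pairs in the top 10% with DMSO, 812 (60.9%) were in the top 10% with talazoparib. Tag density was 1.13 times as high with talazoparib in the median pair and higher in 69.7% of pairs. The tag count per peak was not: its median ratio was 0.966 and it was higher in 45.9%. Shared peaks were shorter with talazoparib, 872 against 1042 bp at the median, and input density at them was 1.34 times as high.

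**Figure D4:**
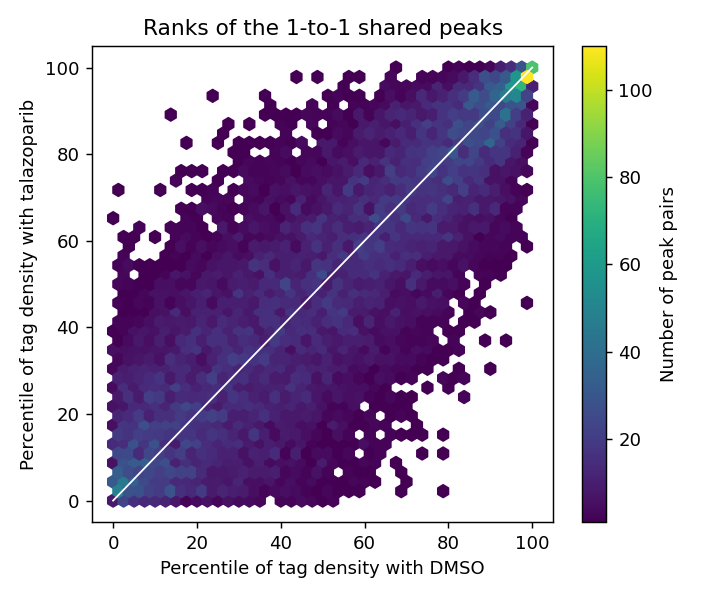
Percentile of normalized tag count per kb (tag density) of the 13339 1-to-1 shared peaks with DMSO (horizontal) and talazoparib (vertical); colour is the number of pairs in a cell and the white line marks equal rank. Most pairs lie near the line, and 911 pairs lie at least 25 points above and 922 at least 25 points below it.

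The strongest shared peaks differed between conditions by varying amounts. In an intron of Filip1l (chr16:57390998-57391875) the density was 97.0 times the mean with DMSO (93.0 to 101) and 100 with talazoparib (95.9 to 105), over inputs of 17.1 and 24.3. Gphn, which encodes the synaptic scaffold gephyrin, had 73.7 and 67.3. Lama1, a laminin gene, had 21.4 and 25.3, and the promoter of Hjurp, the chaperone of the centromeric histone, had 19.4 and 23.5. The promoter of Cactin, a splicing factor gene, had 14.4 (13.5 to 15.5) and 15.6 (14.5 to 16.7) over inputs near the genome mean, 1.18 and 1.17. Fcgr3, an Fc receptor gene, had 13.2 and 15.9, Wrb had 11.9 and 16.4, and Ppp2r3d had 13.1 and 15.1.

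The 8 largest moves up in rank were at peaks that were shorter with talazoparib. In Zfp217, a zinc finger gene, density was 2.26 times the mean with DMSO (1.92 to 2.65) and 5.4 with talazoparib (4.19 to 6.85), a move from percentile 11.9 to 72.4, while the peak measured 2551 bp and 500 bp and its normalized tag count 21.8 and 10.2. Nodal, the ligand of a TGF-beta family pathway active in early embryos, had 2.35 (1.92 to 2.84) and 5.63 (4.79 to 6.56) over lengths of 1723 and 1153 bp, and here the normalized count was also higher, 24.5 against 15.3. At the promoter of Scrt1, a transcriptional repressor gene, density was 2.65 and 6.79 and the count 7.66 and 17.2, with similar lengths of 765 and 671 bp. Zbtb32 (2.36 and 5.57), Disp2 (2.64 and 6.67), Ino80b (2.63 and 6.25), a subunit gene of a chromatin remodeller, Zfp94 (2.95 and 7.38) and Il11ra1 (3.17 and 9.11), an interleukin receptor gene, completed this set. Of these 8 peaks, 4 had a higher normalized count with talazoparib. Among all 911 pairs that moved up, 72.6% were shorter with talazoparib, against 64.8% of all 13339 pairs, 62.5% had a higher normalized count, and input density was 2.13 times as high in the median pair.

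The largest moves down included a gene of the break response. In an intron of Rnf168, the ubiquitin ligase that marks chromatin around double-strand breaks, density was 5.35 (4.17 to 6.76) with DMSO and 2.9 (2.20 to 3.75) with talazoparib. Pnrc1 had 3.98 and 2.14, with a normalized count of 9.98 and 16.0 over 664 and 1969 bp. At the promoter of Msi2, an RNA-binding protein gene, density was 3.95 (3.28 to 4.73) and 2.13 (1.65 to 2.70) over similar lengths, 1165 and 1267 bp. Smarcd3, a gene of the SWI/SNF remodeller, had 6.41 and 3.29. The zinc finger genes Gm14401 (5.00 and 2.84) and Gm14139 (5.11 and 2.96), Prickle2 (5.77 and 3.26), of the planar polarity pathway, and Cited4 (4.81 and 2.86), a transcriptional co-activator gene, followed. Of these 8 peaks 7 were longer with talazoparib, and 7 had a lower normalized count. Among all 922 pairs that moved down, however, 54.2% were shorter and 37.2% longer with talazoparib, 18.2% had a higher normalized count with talazoparib and input density was 0.760 times as high in the median pair. Rank moves in both directions thus went with input density in the same direction, and their part in each other was not tested.

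Rank moves were also summarised by position and CpG density. The 6524 shared promoter peaks had a median density of 4.25 with DMSO and 5.12 with talazoparib and a median move of 0.0787 percentile points. The 3012 intronic peaks had 2.77 and 2.92 with a move of -0.112, and the 2274 intergenic peaks 2.72 and 2.74 with a move of -1.61. The 977 exonic peaks had 3.26 and 3.93 with a move of 2.46. In 4 groups of equal size by CpG density, the lowest and highest moved by -3.01 and -3.13 points and the middle groups by 3.69 and 2.40. Moves of 25 points or more were unequal within groups. In the group of lowest CpG density 175 pairs moved up and 381 down, and in the highest 122 and 259, while in the middle groups 376 and 238 moved up and 183 and 99 down. Of intergenic pairs 135 moved up and 242 down, and of exonic pairs 105 and 49.

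At the level of genes, counted over 20807 protein-coding genes, a promoter peak was kept in 6292 (30.2%), present only with DMSO in 2949 (14.2%, lost) and present only with talazoparib in 1568 (7.54%, gained). A promoter peak is assigned by its centre, so a matched peak whose centre moved out of the window also counts. All promoter peaks were unmatched in 2355 (79.9%) of the 2949 genes and in 748 (47.7%) of the 1568, whereas all were matched peaks in 559 (19%) and 797 (50.8%). A promoter peak is named below as seen in 1 list only where it overlapped no peak of the other list. Counting all peaks in the body or up to 5 kb away, 11690 genes (56.2%) had peaks in both lists, not necessarily matched ones, and are called kept, with 2551 (12.3%) lost and 796 (3.83%) gained. With peaks of at least 6-fold enrichment only, these numbers were 4098 kept, 6480 lost and 1100 gained. With equal numbers of best-scoring peaks they were 10897, 1986 and 1589. Where both lists had a promoter peak, its density was higher with talazoparib in 4969 of 6292 genes (79.0%), with medians of 4.45 and 5.44. Gene groups below are read against these shares; neighbouring genes can share a peak, and no group was tested.

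Tdg itself had 2 DMSO peaks and no talazoparib peak. That at its promoter (chr10:82629765-82630622) had 59.5 IP tags, 2.66 times the mean, over 3.5 input tags, and the intronic peak (chr10:82652540-82653171) 42.5 tags, 2.58 times the mean. These values do not check the genotype label, since a break peak says nothing about whether the gene product is made. Of 23 base excision and strand break repair genes, 18 were kept, 4 (17.4%) were lost (Tdg, Neil1, Polb and Aptx) and none was gained. The lost share over all protein-coding genes was 12.3%. By peaks, 20 of the 43 DMSO peaks of this group were lost (46.5%). Applying to these peaks the loss of each of the 10 tag groups of the whole list gives 15.8 (36.7%). Neil1 encodes a glycosylase for oxidised bases, Polb the gap-filling polymerase and Aptx an enzyme that clears blocked 5' ends; their promoter densities with DMSO were 3.19, 3.84 and 3.35. All 15 genes of this group with a promoter peak in both lists had a higher density with talazoparib, among them the glycosylase gene Ogg1 (6.42 and 10.5), Xrcc1 (6.43 and 10.4), the scaffold that PARP activity recruits, Fen1 (3.82 and 6.92), the flap nuclease, and Mbd4 (5.23 and 6.56), another glycosylase for G:T mismatches. Their median ratio was 1.31, against 1.20 over all genes with such a pair, of which 79.0% had a higher density with talazoparib.

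Of 22 genes of PARP and ADP-ribose turnover, 19 were kept, 1 was lost (Parp10) and none was gained. The drug's targets kept their promoter peaks: Parp1 had 5.03 times the mean density with DMSO and 5.84 with talazoparib, and Parp2 5.71 and 7.75. Parg, which removes ADP-ribose chains, had 3.45 and 4.75. All 10 genes of the group with a promoter peak in both lists had a higher density with talazoparib, with a median ratio of 1.37. Over all genes with such a pair, 79.0% had a higher density, with a median ratio of 1.20. The tag count per shared peak, in contrast, had a median ratio of 0.966 over all 1-to-1 pairs. By peaks, 29 of the 52 DMSO peaks of the group were lost, and the 10 tag groups give 29.5. Promoter peaks of Parp4 (3.29), Parp10 (2.76), Tnks (3.95), Adprhl2 (4.24), H2afy (2.94) and Timeless (1.87) were seen with DMSO only.

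Of 30 homologous recombination and Fanconi genes, on which cells depend when PARP is trapped, 26 were kept, 3 were lost, Rad50 and Exo1 among them, and 1 was gained (Ube2t). Brca1 had promoter densities of 5.36 and 6.61, Brca2 of 4.07 and 3.75, and Xrcc3, the densest of the group, of 9.93 and 14.0. The promoter of Ube2t, the conjugating enzyme of the Fanconi pathway, had 6.87 with talazoparib and no DMSO peak. This group had 64 DMSO peaks, of which 35 were lost, and the 10 tag groups give 34.7. Of 24 p53 and damage response genes, 21 were kept and 2 were lost (Perp and Chek1, the latter encoding a replication checkpoint kinase, at 4.01 with DMSO). Rpa2, a subunit gene of the protein that coats single-stranded DNA, had a promoter peak with talazoparib only, at 8.33. Talazoparib peaks centred in the promoters of Trp53 (5.59) and Sesn1 (9.09) overlapped DMSO peaks centred outside them. Cdkn1a, the cell cycle inhibitor induced by p53, had 4.67 and 3.53. The p53 and damage response genes lost 32 of 62 DMSO peaks, where the tag groups give 33.3.

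The genes of DNA methylation and demethylation were nearly all kept, 22 of 24, with 1 lost (Hells, 3.73 at the promoter with DMSO). By peaks, however, 49 of the 88 DMSO peaks of this group were lost (55.7%), and the 10 tag groups give 53.5 (60.8%). The TET genes, whose enzymes make the oxidised bases that TDG removes, had promoter densities of 2.93 and 3.26 at Tet1, 3.19 and 4.75 at Tet2 and 2.96 and 3.51 at Tet3. Dnmt1, the maintenance methyltransferase gene, had 6.88 and 9.74. Kdm2b, whose protein binds unmethylated CpG islands, had 17 DMSO peaks in its body and within 5 kb and 6 with talazoparib, and Tet1 had 10 and 6.

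Of 26 naive pluripotency genes, 22 were kept, none was gained and 4 were lost: Zfp42, Nr5a2, Dppa2 and Dppa4. Together they had 91 DMSO and 60 talazoparib peaks, with fewer peaks in 17 members and more in 3. Of the 91, 51 were lost, where the 10 tag groups of the whole list give 50.0, so the loss was near that of all peaks of the same strength. Esrrb, with the most peaks of the group, had 16 and 15. Nanog had 4 and 1, and its promoter peak, 3.57 times the mean, was seen with DMSO only. At the promoter of Pou5f1, which encodes OCT4, a peak of 1.76 was seen with talazoparib only and overlapped no DMSO peak, and the same held for Tfcp2l1 (5.08). At Esrrb (4.23), Tbx3 (8.5), Fgf4 (5.61) and Utf1 (6.06) the talazoparib peak centred in the promoter overlapped a DMSO peak centred outside it. Sox2 had 4.70 and 6.07 and Klf4 4.40 and 5.63. Of 17 genes of the primed epiblast, 15 were kept and 1 was lost (Fst). Promoter peaks of Otx2 (2.20) and Fgf5 (2.37) were seen with DMSO only, and that of Sox4 (8.37) with talazoparib only. The primed epiblast genes lost 24 of 43 DMSO peaks, and the tag groups give 23.4.

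Hox genes and other polycomb-bound developmental regulators formed the longest of the 16 lists. Of 79 genes, 28 (35.4%) were lost, 39 (49.4%) kept and 6 (7.59%) gained, against 12.3%, 56.2% and 3.83% of all protein-coding genes. Of those with a DMSO peak, 28 of 67 (41.8%) were lost, against 17.9% over all genes and 4 of 7 (57.1%) of the fibroblast markers. Members share peaks: the group had 107 distinct DMSO peaks, of which 80 (74.8%) were lost. Applying to these peaks the loss of each of the 10 tag groups of the whole list gives 65.3 (61.1%), which is below the 80 observed. Counted at promoters only, 17 of 29 genes with a DMSO peak (58.6%) were lost against 31.9% of all such genes; in 14 of the 17 all promoter peaks were unmatched. With at least 6-fold enrichment it was 36 of 41 (87.8%) against 61.3%. In the HoxB cluster (chr11:96194316-96368256) 8 of 10 genes were lost, with 11 of 13 DMSO peaks lost and 5 talazoparib peaks, 3 of them gained. HoxC had 9 of 11 DMSO peaks lost, HoxD 7 of 8 and HoxA 2 of 5. By genes, HoxC had 2 lost, 6 kept and 1 gained, HoxD 5 lost and 4 kept, and HoxA 1 lost and 6 kept. Over the 4 clusters, 29 of 37 DMSO peaks were lost and 11 of 19 talazoparib peaks were gained. The shares over all peaks were 60.9% and 41.2%. Outside the clusters, Tbx1 (4.79 at the promoter with DMSO), Wnt1 (3.45), Foxf1 (3.22), Gata6 (2.64) and Wt1 (2.23) were lost, while Nkx6-1 (6.08 and 7.74), Lhx2 (4.78 and 5.50), Neurog2 (4.85 and 5.64) and Tfap2a (2.72 and 5.06) kept promoter peaks.

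Of 39 imprinted genes, 27 were kept, 4 lost (Igf2r, Ndn, Magel2 and Airn) and 3 gained (Rasgrf1, Slc22a3 and Ppp1r9a). Promoter peaks of Plagl1 (4.27), Igf2r (4.03) and Grb10 were seen with DMSO only, and Mcts2 had 6.06 and 10.2. The gained peak of Grb10 named above lay in an intron. Among the 76 DMSO peaks of the imprinted genes, 47 (61.8%) were lost, where the 10 tag groups give 55.8%. Of 23 germline genes whose promoters are methylated in somatic cells, 13 were kept, none was gained and 6 (26.1%) were lost: Dazl, Sycp3, Sycp2, Fkbp6, Piwil2 and Tex15. By peaks, 11 of the 25 DMSO peaks of this group were lost (44.0%), below the 61.1% that the 10 tag groups give, so the count of genes and that of peaks point in opposite directions against their backgrounds. All 7 germline genes with a promoter peak in both lists had a higher density with talazoparib, for example Smc1b with 2.61 and 4.86. The share over all genes with such a pair was 79.0%.

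Ribosomal protein, histone and glycolysis genes, which are strongly transcribed in dividing cells, were counted next. Of 72 cytosolic ribosomal protein genes, 65 (90.3%) were kept, 5 lost and 2 gained, and promoter density was higher with talazoparib in 45 of 50. By peaks, 72 of the 158 DMSO peaks of this group were lost (45.6%), and the 10 tag groups give 71.3. Of 67 replication-dependent histone genes, which lie in clusters and share peaks, 57 (85.1%) were kept, 3 lost and 4 gained; their 43 distinct DMSO peaks were strong, with a median of 136 tags, and 14 (32.6%) were lost, where the tag groups give 12.9. Of 19 glycolysis genes, 17 were kept and 2 lost (Ldhb and Pdk1). Their DMSO peaks numbered 67, with 31 (46.3%) lost against 54.5% from the tag groups. Of 27 large late-replicating genes, many of them common fragile sites, 20 were kept, 2 lost (Cntn5 and Nrxn3) and 1 gained (Csmd1). These large genes had 73 DMSO peaks, of which 45 (61.6%) were lost, and the tag groups give 69.9%.

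Genes that mark other cell types were also counted. Of 18 extraembryonic endoderm markers, 10 were kept, 2 lost (Gata6 and Amn) and 5 (27.8%) gained: Sox17, Dab2, Pdgfra, Foxa2 and Cubn. That share stood beside 3.83% over all protein-coding genes, but rested on few peaks, of which Pdgfra had 4 and the others 1 each, and Gata6, Sox17 and Foxa2 are also among the developmental regulators above. These markers also lost 29 of their 40 DMSO peaks (72.5%), where the 10 tag groups give 67.9%. Of 16 fibroblast markers, 9 had no peak in either list, 3 were kept, 4 lost (Col1a1, Thy1, Twist2 and Pdgfrb) and none gained. They had 13 DMSO peaks, of which 10 (76.9%) were lost, and the tag groups give 74.5%. Whether cells of these types were present cannot be read from break peaks.

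**Figure D5:**
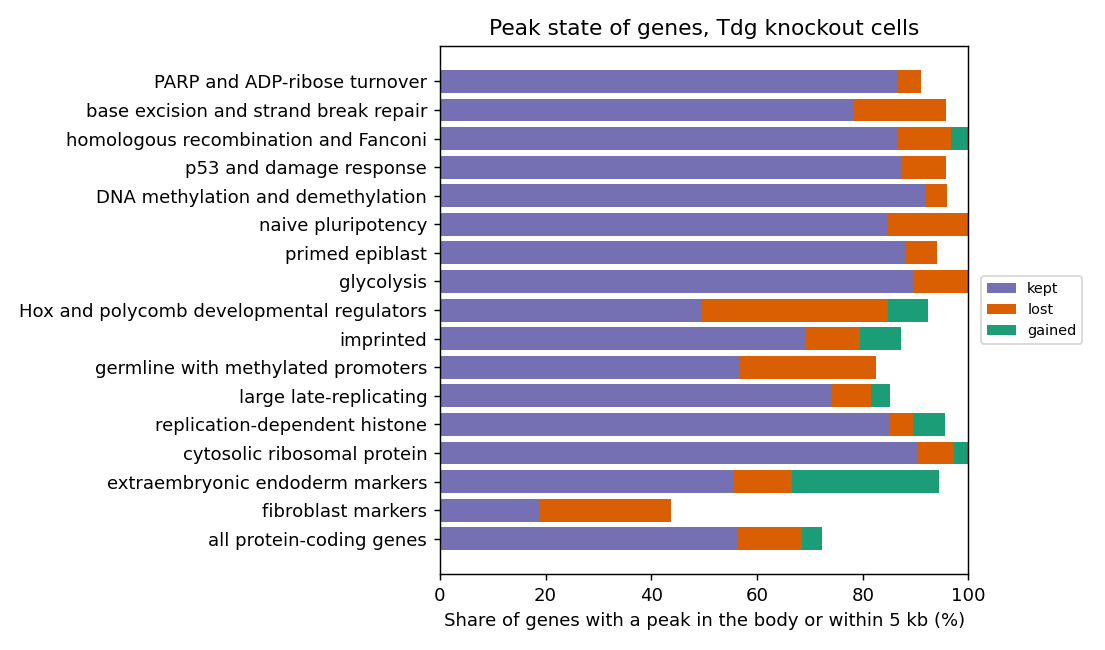
Share of the genes of each list (%) with a peak in the body or up to 5 kb away in both lists (kept), with DMSO only (lost) or with talazoparib only (gained); the remainder to 100% had no peak. Lost genes make up 35.4% of Hox and polycomb developmental regulators and 12.3% of all protein-coding genes.

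The wild-type lists placed these classes. Kept peaks were largely shared with wild-type cells: 67.3% overlapped a wild-type DMSO peak and 48.8% a wild-type talazoparib peak. Lost peaks did so in 24.5% and 11.6%, and gained peaks in 21.2% and 10.3%. In the wild-type pair 28.2% of DMSO peaks were kept and 47.8% of talazoparib peaks were gained, against 39.1% and 41.2% without TDG. The sample descriptions carry 2 codes per genotype, read here as flow cells, and the genotypes shared 0 of them. Genotype and sequencing run therefore cannot be told apart, and the difference between genotypes was not tested. How the 2 codes of the KO libraries divide between talazoparib and DMSO is not given here, and a part of the run in that comparison was not tested.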

How the data were processed

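Per the submitters' processing notes, Bowtie2 2.3.4.2, Picard 2.9.2, HOMER 4.11 and R 3.6 were used with mm10, without roles or settings; the lists have HOMER's findPeaks columns per the file headers. The authors pooled 3 IP libraries per list. The deposited normalized tag count is IP signal per 10000000 tags, and the deposited input column is a signal in input tags. The deposited fold is a ratio of IP tags, scaled to the input total (other unit), to input tags. The highest deposited p-value was 8.32e-05, the authors' peak score was used only to order peaks within a list, and neither was compared across lists. Positions are those of the tables, which do not say if starts are 0-based.

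IP totals were estimated from the step of 0.5 tags in normalized counts under 6, on which 100% of values fell within 0.0051. Density is tags per bp over the mean of 2648 Mb. GENCODE M21 on GRCm38.p6 gave the annotation of peak centres. Python 3.11.15, NumPy 2.4.6, pandas 2.3.3, SciPy 1.17.1 and Matplotlib 3.10.9 were used, and overlap, totals and intervals were checked on simulated lists.

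The members and gene lists were chosen with earlier results of these data known. Named peaks were the 8 strongest per kb in protein-coding promoters or bodies (lost, gained), the 8 pairs of highest mean percentile (kept), the 8 largest rank moves each way with 50 or more tags in both lists, and the 6 genes with most lost or gained peaks. Of the listed names, Apex2, Oct6, Taf7l, Park2 and Imm2l have no value here, and a few items are not reported here.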

Additional observations from a re-analysis of the deposited data

How the results depend on the processing

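No paired analysis was possible because each list pools its 3 IP libraries, and for the same reason leaving out a library could not be run; the replicate block has no value. The overlap rule and the limits on peaks moved the shares of kept and gained peaks. Where a match had to cover 50% of the shorter peak, 36.5% of DMSO peaks were kept and 45.1% of talazoparib peaks gained, with promoter shares of 17.8% (lost), 50.5% (kept) and 15.4% (gained). Where it had to cover 50% of both, 28.7% of DMSO peaks were kept and 57.3% of talazoparib peaks gained, with promoter shares of 20.4% (lost), 52.7% (kept) and 21.7% (gained). Where peaks up to 500 bp apart also matched, 41.5% of DMSO peaks were kept and 38.0% of talazoparib peaks gained, with promoter shares of 17.5% (lost), 46.9% (kept) and 14.2% (gained). With a fold of at least 6 in both lists, 12.5% of DMSO peaks were kept and 65.5% of talazoparib peaks gained, with promoter shares of 24.7% (lost), 57.6% (kept) and 20.8% (gained). With equal numbers of best-scoring peaks, 48.6% of DMSO peaks were kept and 50.8% of talazoparib peaks gained, with promoter shares of 23.0% (lost), 52.2% (kept) and 18% (gained). With at least 3 input tags, 55.1% of DMSO peaks were kept and 36.5% of talazoparib peaks gained, with promoter shares of 28.2% (lost), 57.9% (kept) and 23.0% (gained). With a density of at least 2 times the mean, 44.2% of DMSO peaks were kept and 37.3% of talazoparib peaks gained, with promoter shares of 20.7% (lost), 51.6% (kept) and 17.3% (gained). With X and Y included, 39.4% of DMSO peaks were kept and 41.0% of talazoparib peaks gained, with promoter shares of 17.7% (lost), 49.0% (kept) and 14.9% (gained). With input density at most the genome mean, an alternative chosen after seeing the data, 27.9% of DMSO peaks were kept and 50.4% of talazoparib peaks gained, with promoter shares of 24.3% (lost), 37.2% (kept) and 14.7% (gained). A promoter window of 2000 bp upstream to 500 bp downstream gave 27.5%, 60.4% and 23.2%. Kept peaks had the highest promoter share and CpG density, and gained peaks the highest share with a CA repeat, under all 9 of these overlap rules and limits, whereas lost peaks exceeded gained peaks in promoter share under 8; under the overlap of 50% of both peaks that order turned. The rank correlation was 0.823 over all matched pairs, 0.804 per peak, 0.773 with 50 or more tags in both lists and 0.864 where pairs shared 50% of both peaks. With promoters only, 2949 genes were lost, 6292 kept and 1568 gained. With a fold of at least 6, 6480 genes were lost, 4098 kept and 1100 gained. With equal numbers of peaks, 1986 genes were lost, 10897 kept and 1589 gained. Of the Hox and polycomb genes, in alternatives chosen after seeing the data, 17 were lost with promoters only, 36 with a fold of at least 6 and 25 with equal numbers of peaks. 

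The main limit is the single pooled list per condition: no difference between talazoparib and DMSO has a replicate check, and intervals cover counting error only. Of these limits, a fold of at least 6 moved the shares of kept and gained peaks most. It left lists of unequal size, 19901 DMSO and 7204 talazoparib peaks, and the cause was not tested. Lost and gained peaks rest on medians of 35.5 and 31.5 IP tags and 2.0 and 2.5 input tags, a depth at which absence from a list is not absence of breaks.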
